A study of Mus musculus with 14 samples.

Results

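Type I interferon response genes were followed in sorted mouse bone marrow cells, across animals that carried an instigating tumour, a non-instigating tumour or no tumour. The set was a list of 43 gene symbols, and every probe set annotated to 1 of them alone was taken. Of the 43 genes, 39 were measured, by 58 probe sets, among 12393 genes with a probe set of their own on the array. Where a gene had several probe sets, the one brightest on average over the 14 arrays was used. Isg15 shares its only probe set with another symbol, and Ddx58, Xaf1 and Ifi44 had none named for them, so no value is given for these 4. For 30 of the 39 genes that probe set was brighter than the median of all probe sets.

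The cells were bone marrow cells (BMCs) sorted by flow cytometry as Sca1+/cKit-, that is, carrying the stem cell antigen Sca1 and lacking the stem cell factor receptor. Per the labels, 5 Instigator arrays came from mice bearing a BPLER tumour, 5 Non-instigator arrays from mice bearing a PC3 tumour of matched size, and 4 Matrigel arrays from mice given Matrigel alone. BPLER is a line of transformed human mammary epithelial cells, PC3 is a human prostate carcinoma line, and Matrigel is a basement membrane extract. The sources used here do not give strain, sex, age, time or pooling of animals. They do not say that arrays of a group came from separate animals, so p-values cover only the spread among these samples, in part perhaps technical. Instigator 5 is described in 1 label as coming from a PC3 host, against its title and source label. It was kept in the Instigator group, and counts without it, with some single-gene values, are given below. Sca1 is encoded by Ly6a, for which the annotation names no probe set of its own, so the first sort marker could not be looked at. The brightest probe set of Kit averaged 7.58 ± 0.22 across Instigator arrays (SD, n = 5), 7.37 ± 0.45 across Non-instigator arrays (SD, n = 5) and 7.52 ± 0.37 across Matrigel arrays (SD, n = 4). The leukocyte antigen Ptprc averaged 11.38 ± 0.33, 11.41 ± 0.22 and 11.37 ± 0.26 in the same order.

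Type I interferons bind a receptor of 2 chains, Ifnar1 and Ifnar2, whose kinases Jak1 and Tyk2 activate transcription factors, Stat2 among them. A complex that holds Stat2 and Irf9 binds a DNA element, the interferon-stimulated response element (ISRE), in front of many of the genes described here. The products block viral RNA and protein synthesis, sense foreign nucleic acids, cut peptides for presentation, or feed back on the pathway. Several of them, such as the immunity-related GTPases in mice, answer to interferon gamma as well. In bone marrow, interferon signalling is known to act on stem and progenitor cells, in which it raises Sca1, and plasmacytoid dendritic cells are a main source of type I interferon.

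Stretches in front of 5 of the genes show this element. The 5 were picked because they hold it, as 14 of the 33 genes with a window do, and their values are described below. Each runs 5′ to 3′ on the gene's strand from 150 bases before the RefSeq start of the gene to 10 bases after it (GRCm38.p6). Capitals mark the core of the ISRE on either strand, spelt GAAA, any 2 bases, GAAA. The stretches lie at chr19:34640739-34640898, + strand for Ifit1, chr5:120907516-120907675, - strand for Oas1a, chr12:26456443-26456602, - strand for Rsad2, chr11:58199406-58199565, + strand for Igtp and chr3:142620513-142620672, + strand for Gbp2.
Ifit1: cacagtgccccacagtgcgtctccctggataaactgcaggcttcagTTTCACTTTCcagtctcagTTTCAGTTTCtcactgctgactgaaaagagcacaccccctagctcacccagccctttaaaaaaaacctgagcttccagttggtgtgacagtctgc
Oas1a: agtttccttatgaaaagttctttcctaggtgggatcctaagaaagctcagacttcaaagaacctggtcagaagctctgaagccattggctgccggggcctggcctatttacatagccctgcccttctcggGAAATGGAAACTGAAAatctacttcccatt
Rsad2: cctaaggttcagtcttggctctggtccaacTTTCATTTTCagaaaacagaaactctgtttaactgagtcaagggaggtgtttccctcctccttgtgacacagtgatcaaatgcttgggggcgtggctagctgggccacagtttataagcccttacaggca
Igtp: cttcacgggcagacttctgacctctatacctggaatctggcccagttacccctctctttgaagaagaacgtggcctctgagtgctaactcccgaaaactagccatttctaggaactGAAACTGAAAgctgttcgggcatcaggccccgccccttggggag
Gbp2: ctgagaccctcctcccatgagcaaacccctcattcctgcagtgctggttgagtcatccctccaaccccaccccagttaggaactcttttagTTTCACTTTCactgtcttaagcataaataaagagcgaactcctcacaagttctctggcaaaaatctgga
Ifit1 held 2 separate matches and Oas1a 2 overlapping ones, while Rsad2, Igtp and Gbp2 held 1 each. Of 33 listed genes with a RefSeq window of 250 bases before to 50 after their start, 14 (42.4%) held a match, against 3.99% of the 27025 genes in the promoter table. Counted by window, 3.44% of the 32851 windows held one. By role, matches to the ISRE letters were in 7 of 13 antiviral effectors, 2 of 2 sensors, 4 of 5 GTPases and 1 of 4 signalling genes, and in none of the antigen processing, nuclear body or other induced genes with a window. A match is a run of letters and not a shown binding site.

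Values are log2 of RMA intensity, on which a difference of 1 is a doubling, and levels of different probe sets are not set against each other. Median log2 intensity per array ran from 6.90 to 7.18. Both ends were arrays that stood apart. Instigator 4 had the lowest median and a 5′ minus 3′ difference of -3.41 at the beta-actin control probe sets, against -0.81 to -0.51 on the other arrays. At the Gapdh controls it was -4.03, against -1.16 to -0.73. At the transferrin receptor controls it was -2.58, inside the range of the other arrays (-2.71 to -1.98). Matrigel 3 had the highest median. Values without either array are given beside the results that they move most.

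**Figure D1:**
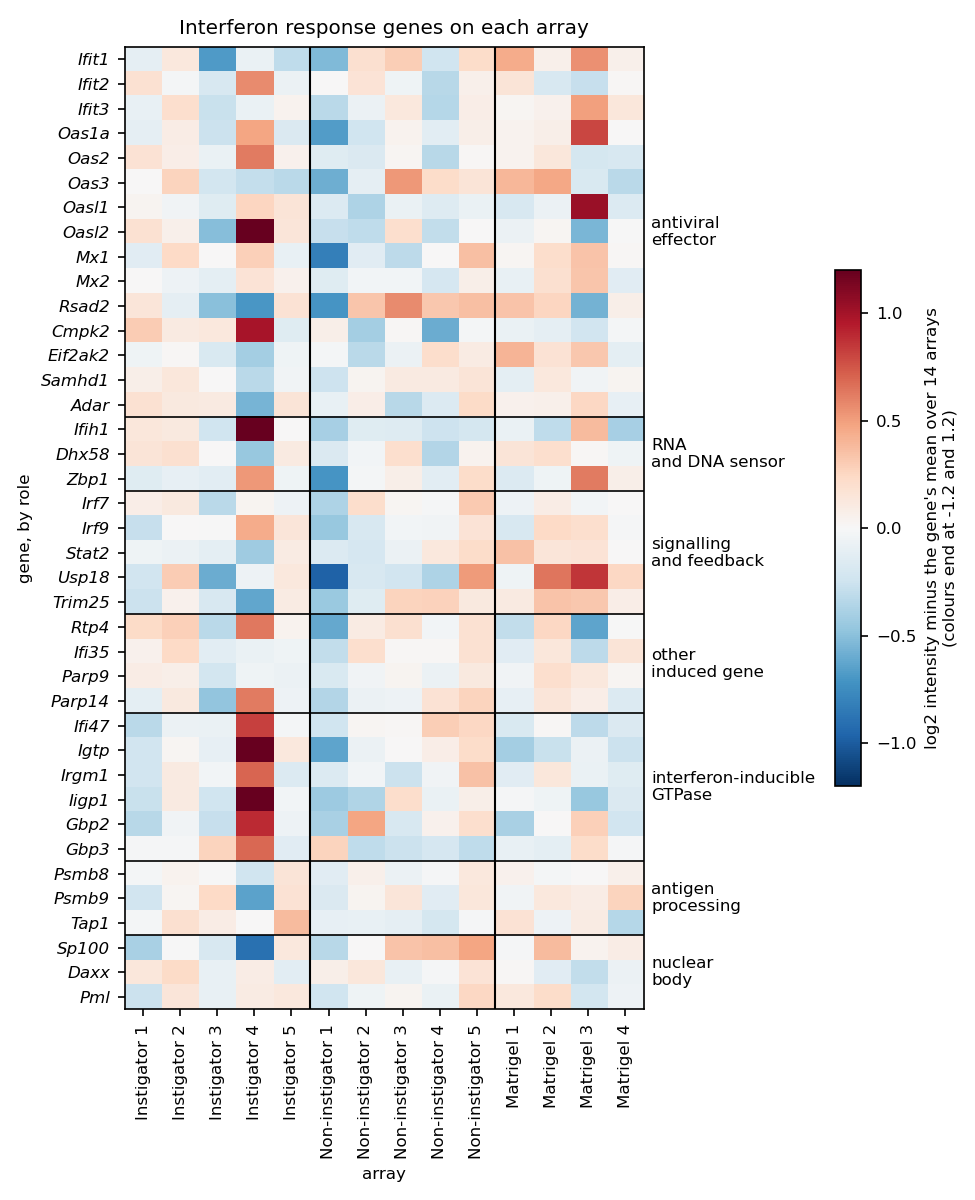
Log2 intensity of each of the 39 genes minus its mean over the 14 arrays (rows, grouped by role) on each array (columns, in the order Instigator, Non-instigator, Matrigel). The Instigator 4 column holds the deepest red among the GTPases and the Non-instigator 1 column is blue for 35 of 39 genes.

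No interferon response gene separated the groups. Across the 3 comparisons, limma called 0 of the 39 genes at an adjusted p under 0.05, and no gene had groups without overlap. The background was equally empty, since 0 of 22626 probe sets (0.0%) were called in each comparison. An unadjusted p under 0.05 was found for 2324 probe sets in Instigator against Matrigel, for 477 in Non-instigator against Matrigel and for 1268 in Instigator against Non-instigator. By array, the mean of the 39 genes, each centred on its own mean, ran from -0.16 to 0.24 in Instigator, from -0.31 to 0.15 in Non-instigator and from -0.05 to 0.10 in Matrigel arrays.

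The first comparison bears on the effect of the BPLER tumour. Between Instigator and Matrigel arrays 17 genes lay higher and 22 lower (45.9% and 54.1% of all genes), with a median difference of -0.03 that stood beside -0.02 over all genes. At an unadjusted p under 0.05, 0 were higher, against 3.63% of all genes, and 4 were lower, against 5.16%. The 4 were the translation inhibitor kinase Eif2ak2, the RNA-binding protein Ifit1, the ubiquitin ligase Trim25 and the transcription factor Stat2, with differences of -0.49 to -0.28. Without Instigator 4, 1 of these, Ifit1, was still under that level, and without Instigator 4 and Matrigel 3 none was lower and 1, the sensor Ifih1, was higher (difference 0.26). Groups without overlap were found for 0 of the 39 genes, against 1.12% of all genes higher and 1.21% lower. Without Instigator 5, the array with the conflicting label, 2 were higher and 5 lower at an unadjusted p under 0.05. Counting it as Non-instigator gave 2 and 5 as well. With each array centred on its median the split was 23 higher and 16 lower, with 3 higher and 1 lower at that level, and with quantile normalization the split was 19 and 20. The medians of the 39 genes were then 0.04 and 0.00, beside 0.05 and 0.01 over all probe sets. For the counts of genes in such alternative runs, here and in the comparisons below, no share over all genes is given.

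The second comparison asks what a tumour without instigating activity changes. Between Non-instigator and Matrigel arrays 15 genes lay higher and 24 lower (38.3% and 61.7% of all genes), with a median difference of -0.07, beside -0.04 over all genes. At an unadjusted p under 0.05, 0 were higher (0.791% of all genes) and 2 lower (1.17%): Usp18, the protease that removes the ubiquitin-like Isg15 and damps receptor signalling, and Ifit3. Without Non-instigator 1, or without Matrigel 3, none was. No gene had groups without overlap, against 0.347% of all genes higher and 0.403% lower. Both comparisons with Matrigel share its 4 arrays.

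The third comparison sets the tumour types against each other at matched size. Between Instigator and Non-instigator arrays 24 genes lay higher and 15 lower (58.2% and 41.8% of all genes), with a median difference of 0.06, beside 0.03 over all genes. At an unadjusted p under 0.05, 3 were higher (2.41% of all genes) and 1 lower (2.92%). The 3 were the nucleotide kinase Cmpk2, the RNA-triggered oligoadenylate synthase Oas2 and the peptide transporter subunit Tap1, and the 1 was the nuclear body protein Sp100. Without Instigator 4, Tap1 alone was under that level, and the median was 0.01. Without Non-instigator 1, 20 genes lay higher and 19 lower, with a median of 0.00, and 2 were higher and 3 lower at that level. Without Non-instigator 4 none was at that level in either direction, and without Non-instigator 2 there were 0 higher and 1 lower. Without Instigator 5, 4 were higher and 1 lower at that level, and counting it as Non-instigator gave 4 and 1 as well. No gene had groups without overlap, against 0.71% higher and 0.436% lower. Centring each array on its median gave 29 genes higher and 10 lower, and quantile normalization 28 and 11. The medians were then 0.09 and 0.06, beside 0.04 and 0.01 over all probe sets.

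**Figure D2:**
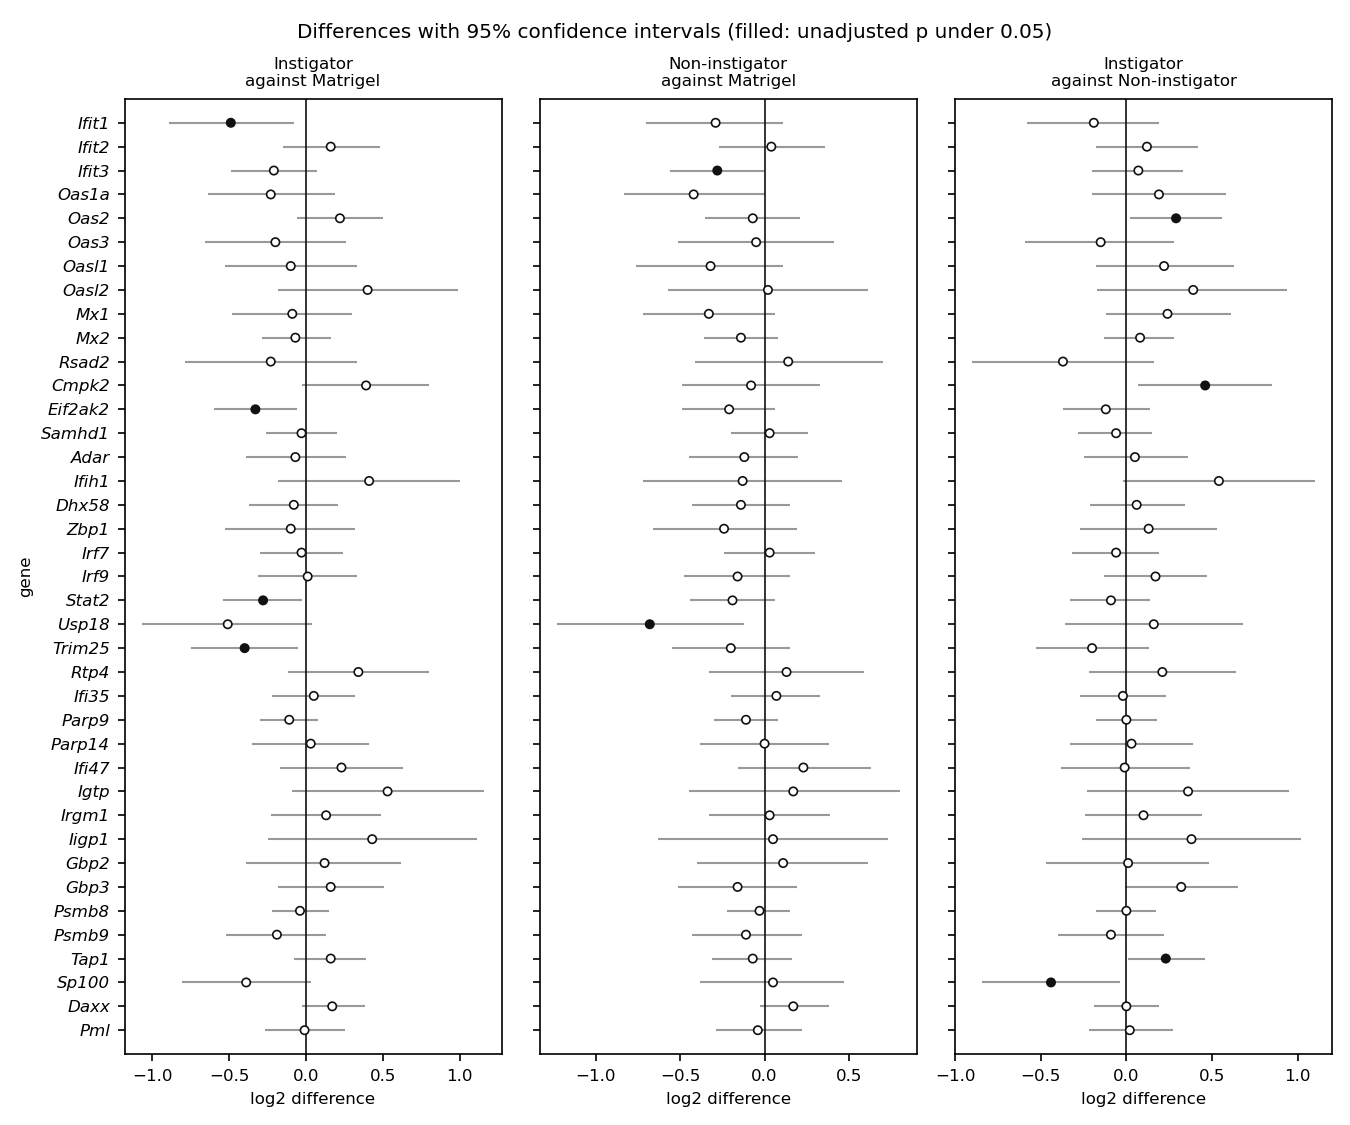
Difference in log2 intensity of each gene (points) with its 95% confidence interval from limma (lines) in the 3 comparisons, each first group minus second. Filled points have an unadjusted p under 0.05, which holds for 4, 2 and 4 of the 39 genes.

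Among the antiviral effectors, 15 genes were measured. Of these, 11 lay lower in Instigator than in Matrigel arrays (median -0.09), 11 lay lower in Non-instigator than in Matrigel arrays (median -0.12), and 10 lay higher in Instigator arrays than in Non-instigator ones (median 0.08). In Instigator against Matrigel, centring each array on its median gave 7 higher and 8 lower (median -0.01), and leaving out Matrigel 3 gave 6 and 9 (median -0.02). The Ifit proteins bind viral RNA that lacks the host cap marks, or form complexes with those that do. Ifit1 lay at 5.51, 5.75, 4.94, 5.54 and 5.32 in Instigator arrays, at 5.09, 5.81, 5.92, 5.38 and 5.84 in Non-instigator arrays and at 6.07, 5.68, 6.17 and 5.68 in Matrigel arrays. Both tumour groups held the lowest values, Instigator 3 and Non-instigator 1, while all 4 Matrigel arrays lay at or above 5.68. Its difference was -0.49 (95% CI -0.89 to -0.08, adjusted p = 0.442) in Instigator against Matrigel and -0.29 (95% CI -0.70 to 0.11, adjusted p = 0.986) in Non-instigator against Matrigel. Between the tumour groups it was -0.19 (95% CI -0.58 to 0.19, adjusted p = 0.852), and it was -0.32 without Non-instigator 1 and -0.07 without Instigator 3.

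Ifit3 lay at 7.43, 7.72, 7.25, 7.44 and 7.56 in Instigator arrays, at 7.19, 7.45, 7.64, 7.17 and 7.60 in Non-instigator arrays and at 7.54, 7.57, 8.01 and 7.65 in Matrigel arrays. Matrigel 3 was the highest of the 14 arrays and 2 Non-instigator arrays the lowest, and the groups overlapped. The difference in Non-instigator against Matrigel was -0.28 (95% CI -0.56 to 0.00, adjusted p = 0.986), or -0.18 without Matrigel 3. Ifit2 averaged 7.58 ± 0.30 across Instigator arrays (SD, n = 5), 7.45 ± 0.19 across Non-instigator arrays (SD, n = 5) and 7.41 ± 0.20 across Matrigel arrays (SD, n = 4), with its highest value on Instigator 4.

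The oligoadenylate synthases make a short second messenger that activates an RNA-cutting enzyme. Oas1a lay at 7.98, 8.18, 7.83, 8.56 and 7.92 in Instigator arrays, at 7.42, 7.85, 8.13, 7.96 and 8.16 in Non-instigator arrays and at 8.13, 8.16, 8.89 and 8.10 in Matrigel arrays. Non-instigator 1 lay 0.41 below the next lowest array and Matrigel 3 lay 0.33 above the next highest, and the rest fell between 7.83 and 8.56. The difference in Non-instigator against Matrigel was -0.42 (95% CI -0.83 to 0.00, adjusted p = 0.986). It was -0.23 without Matrigel 3 and -0.29 without Non-instigator 1. Oas2 lay at 7.15, 7.06, 6.90, 7.60 and 7.03 in Instigator arrays, at 6.83, 6.81, 7.00, 6.65 and 6.99 in Non-instigator arrays and at 7.02, 7.12, 6.77 and 6.79 in Matrigel arrays. Its highest value was again on Instigator 4, and the other Instigator arrays lay inside or just above the range of the other groups. It differed by 0.29 (95% CI 0.02 to 0.56, adjusted p = 0.813) in Instigator against Non-instigator, and by 0.18 without Instigator 4. Against Matrigel the Instigator difference was 0.22 (95% CI -0.06 to 0.50, adjusted p = 0.565), or 0.11 without Instigator 4.

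Oas3 averaged 8.01 ± 0.24 across Instigator arrays (SD, n = 5), 8.16 ± 0.41 across Non-instigator arrays (SD, n = 5) and 8.21 ± 0.40 across Matrigel arrays (SD, n = 4). The synthase-like proteins Oasl1 and Oasl2 each had 1 array far from the rest. Oasl1 lay at 6.22 on Matrigel 3 and between 4.81 and 5.44 on the other 13 arrays. Oasl2 lay at 8.41 on Instigator 4 and between 6.47 and 7.22 elsewhere. In mice Oasl1 is known to hold back the translation of Irf7.

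Mx1 and Mx2 are dynamin-like GTPases that block virus replication. Mx1 lay at 8.12, 8.50, 8.26, 8.54 and 8.17 in Instigator arrays, at 7.44, 8.12, 7.94, 8.26 and 8.62 in Non-instigator arrays and at 8.28, 8.47, 8.60 and 8.27 in Matrigel arrays. Non-instigator 1 lay 0.50 below the next lowest array, and the highest array was of the same group. The difference in Non-instigator against Matrigel was -0.33 (95% CI -0.72 to 0.06, adjusted p = 0.986), and -0.17 without Non-instigator 1. Mx2 stayed between 4.08 and 4.61 on every array.

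Rsad2 (viperin) and Cmpk2 are neighbours on chromosome 12 that act on nucleotides, viperin by making a chain-terminating one. Rsad2 lay at 10.95, 10.70, 10.30, 10.11 and 10.98 in Instigator arrays, at 10.10, 11.14, 11.37, 11.13 and 11.17 in Non-instigator arrays and at 11.15, 11.06, 10.24 and 10.88 in Matrigel arrays. Low values were found in each group, on Non-instigator 1, Instigator 4, Matrigel 3 and Instigator 3. In Instigator against Non-instigator it differed by -0.37 (95% CI -0.90 to 0.16, adjusted p = 0.813), by -0.59 without Non-instigator 1 and by -0.25 without Instigator 4. Its other probe sets gave -0.20 and -0.63 there.

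Cmpk2 lay at 7.56, 7.36, 7.38, 8.24 and 7.11 in Instigator arrays, at 7.32, 6.85, 7.27, 6.66 and 7.23 in Non-instigator arrays and at 7.17, 7.15, 7.02 and 7.23 in Matrigel arrays. Instigator 4 was the highest of all arrays by 0.69, 3 other Instigator arrays lay above every array of the other groups, and Instigator 5 lay among them. The differences were 0.46 (95% CI 0.07 to 0.85, adjusted p = 0.813) in Instigator against Non-instigator and 0.39 (95% CI -0.03 to 0.80, adjusted p = 0.51) in Instigator against Matrigel. Without Instigator 4 they were 0.29 and 0.21, and without Instigator 5 they were 0.57 and 0.49. The dimmer of its probe sets gave 0.05 and 0.01. In Non-instigator against Matrigel the brighter set differed by -0.08.

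Eif2ak2 (PKR) halts protein synthesis when it binds double-stranded RNA. It lay at 7.72, 7.78, 7.59, 7.36 and 7.72 in Instigator arrays, at 7.75, 7.45, 7.70, 7.98 and 7.87 in Non-instigator arrays and at 8.18, 7.94, 8.09 and 7.65 in Matrigel arrays. The 3 highest arrays were Matrigel 1, Matrigel 3 and Non-instigator 4, but Matrigel 4 lay at 7.65, inside the Instigator range. Its difference was -0.33 (95% CI -0.60 to -0.06, adjusted p = 0.442) in Instigator against Matrigel and -0.21 (95% CI -0.49 to 0.06) in Non-instigator against Matrigel, and its other probe set gave -0.36 and -0.52. In Instigator against Matrigel the difference was -0.26 without Instigator 4 and -0.22 without Instigator 4 and Matrigel 3. Samhd1, which breaks down deoxynucleotides, averaged 10.39 ± 0.18 across Instigator arrays (SD, n = 5), 10.45 ± 0.16 across Non-instigator arrays (SD, n = 5) and 10.42 ± 0.10 across Matrigel arrays (SD, n = 4). Adar, which edits double-stranded RNA, averaged 6.53 ± 0.32 across Instigator arrays (SD, n = 5), 6.48 ± 0.22 across Non-instigator arrays (SD, n = 5) and 6.60 ± 0.14 across Matrigel arrays (SD, n = 4), with Instigator 4 lowest at 5.97.

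**Figure D3:**
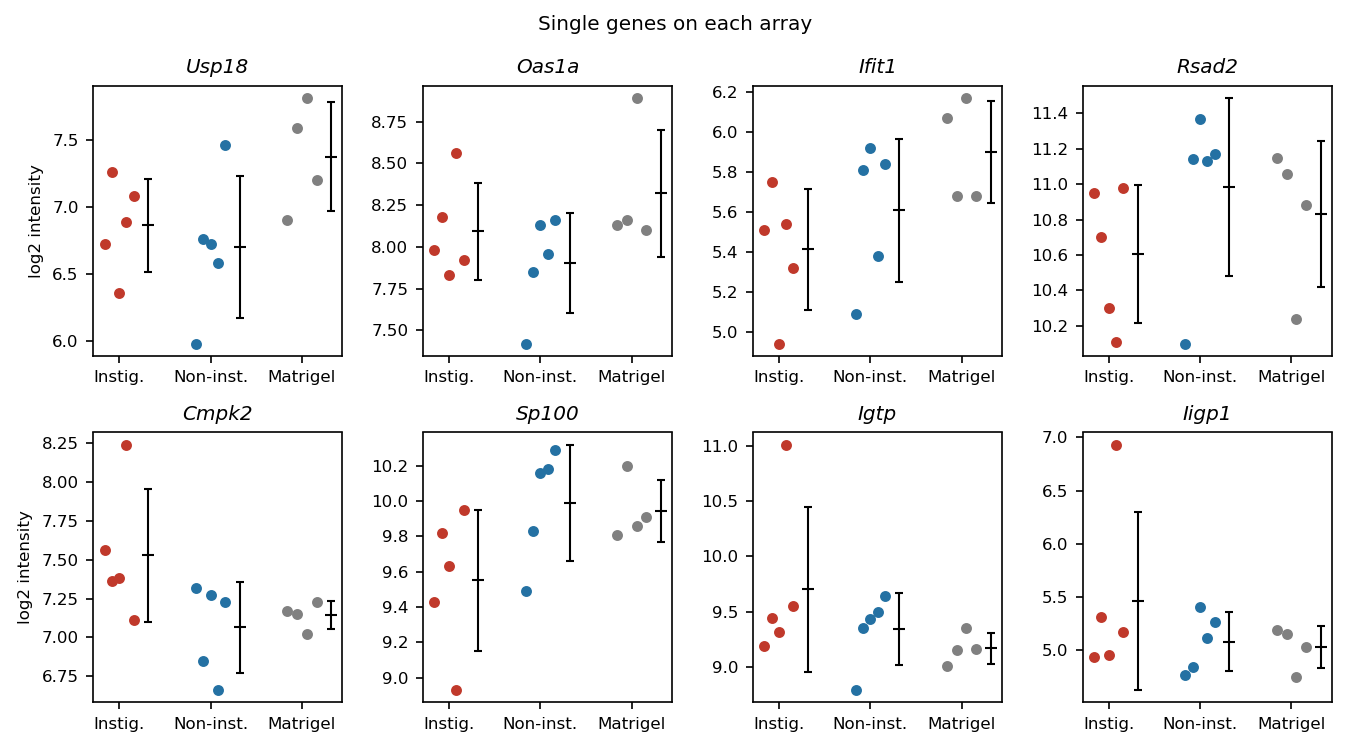
Log2 intensity of 8 genes on each array (points) with the mean and SD of each group (bars), in the order Instigator, Non-instigator, Matrigel. Axes differ between panels and do not start at 0. The group ranges overlap for each gene, and single arrays such as Instigator 4 for Igtp (11.01) and Iigp1 (6.93) stand far from their group.

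The nucleic acid sensors were Ifih1 (MDA5), which detects long double-stranded RNA, its regulator Dhx58, and Zbp1, which binds Z-form nucleic acids. Ifih1, described here because of its values, lay at 7.22, 7.20, 6.85, 8.62 and 7.09 in Instigator arrays, at 6.69, 6.94, 6.93, 6.84 and 6.88 in Non-instigator arrays and at 7.01, 6.78, 7.47 and 6.69 in Matrigel arrays. Instigator 4 exceeded the next array by 1.15. The difference in Instigator against Non-instigator was 0.54 (95% CI -0.02 to 1.10, adjusted p = 0.813), with all but 1 of the Instigator arrays at or above 7.09 and all Non-instigator arrays at or below 6.94. Without Instigator 4 it was 0.23. Zbp1 was lowest on Non-instigator 1 (7.71) and highest on Matrigel 3 (9.04) and Instigator 4 (8.94), with 8.26 to 8.64 on the other 11 arrays. Its dimmer probe set went the other way on Instigator 4, which at 6.69 was the lowest of the 14 arrays, and differed by -0.49 in Instigator against Matrigel (adjusted p = 0.442). Dhx58 averaged 6.63 ± 0.26 across Instigator arrays (SD, n = 5), 6.57 ± 0.21 across Non-instigator arrays (SD, n = 5) and 6.71 ± 0.12 across Matrigel arrays (SD, n = 4).

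The 5 signalling and feedback genes had medians of -0.28 in Instigator against Matrigel, -0.19 in Non-instigator against Matrigel and -0.06 in Instigator against Non-instigator, and 4 of the 5 lay lower in each comparison with Matrigel. Usp18 lay at 6.72, 7.26, 6.36, 6.89 and 7.08 in Instigator arrays, at 5.98, 6.76, 6.72, 6.58 and 7.46 in Non-instigator arrays and at 6.90, 7.59, 7.81 and 7.20 in Matrigel arrays. The 2 highest arrays were Matrigel 3 and Matrigel 2, Non-instigator 5 came next, and Non-instigator 1 lay 0.38 below every other array. In Non-instigator against Matrigel it differed by -0.68 (95% CI -1.23 to -0.12, adjusted p = 0.986), or 0.626-fold. That difference was -0.53 without Matrigel 3 and -0.50 without Non-instigator 1. In Instigator against Matrigel it was -0.51 (95% CI -1.07 to 0.04, adjusted p = 0.513).

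Stat2, the subunit of the interferon complex that activates transcription, lay at 7.37, 7.35, 7.31, 7.00 and 7.52 in Instigator arrays, at 7.26, 7.22, 7.35, 7.55 and 7.64 in Non-instigator arrays and at 7.78, 7.57, 7.59 and 7.43 in Matrigel arrays. Instigator 4 was lowest, and Matrigel 4 lay inside the range of both tumour groups. It differed by -0.28 (95% CI -0.54 to -0.03, adjusted p = 0.449) in Instigator against Matrigel and by -0.19 (95% CI -0.44 to 0.06) in Non-instigator against Matrigel. Its dimmer probe set gave -0.05 and -0.17. Trim25, which attaches ubiquitin to the sensor RIG-I, lay at 10.06, 10.37, 10.13, 9.70 and 10.42 in Instigator arrays, at 9.88, 10.18, 10.59, 10.60 and 10.44 in Non-instigator arrays and at 10.43, 10.66, 10.65 and 10.40 in Matrigel arrays.

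Trim25 was lowest on Instigator 4 and Non-instigator 1, and the 4 Matrigel arrays lay between 10.40 and 10.66, a range that 1 Instigator and 3 Non-instigator arrays also reached. Its differences were -0.40 (95% CI -0.75 to -0.05, adjusted p = 0.445) in Instigator against Matrigel and -0.20 (95% CI -0.53 to 0.13, adjusted p = 0.823) in Instigator against Non-instigator. Without Instigator 4 they were -0.29 and -0.09. Its other probe sets gave -0.32 and -0.23 against Matrigel. This value comes from a set with the s_at suffix, which marks probes shared by several transcripts. Irf7, the main amplifier of interferon alpha transcription, averaged 7.40 ± 0.18 across Instigator arrays (SD, n = 5), 7.46 ± 0.26 across Non-instigator arrays (SD, n = 5) and 7.43 ± 0.06 across Matrigel arrays (SD, n = 4). Irf9, the DNA-binding partner of Stat2, averaged 9.20 ± 0.26 across Instigator arrays (SD, n = 5), 9.02 ± 0.23 across Non-instigator arrays (SD, n = 5) and 9.19 ± 0.20 across Matrigel arrays (SD, n = 4). Both had their lowest value on Non-instigator 1.

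Of the other induced genes, the receptor transporter protein Rtp4 lay at 7.23, 7.28, 6.67, 7.63 and 7.04 in Instigator arrays, at 6.38, 7.10, 7.19, 6.96 and 7.18 in Non-instigator arrays and at 6.70, 7.25, 6.36 and 6.99 in Matrigel arrays. It spanned 1.27 over the arrays, with lows on Matrigel 3 and Non-instigator 1. In Non-instigator against Matrigel it differed by 0.13 (95% CI -0.33 to 0.59, adjusted p = 0.986), and by -0.02 without Matrigel 3. The other Rtp4 probe set had the opposite sign in the 3 comparisons, at -0.15, -0.07 and -0.08 against 0.34, 0.13 and 0.21. That set was highest on Matrigel 3, at 7.23. The ADP-ribosyltransferases Parp9 and Parp14 and the interferon-induced protein Ifi35 differed by between -0.11 and 0.07 in every comparison.

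The interferon-inducible GTPases act on the membranes around intracellular pathogens. All 6 lay higher in Instigator than in Matrigel arrays, by 0.12 to 0.53 (median 0.20), and 5 of 6 lay higher in Instigator arrays than in Non-instigator ones (median 0.21), and none passed the test. Instigator 4 held the highest of the 14 values for all 6. It held the highest value for 14 of the 39 interferon response genes and for 21.1% of all genes. Without it, 4 of 6 lay higher than in Matrigel arrays with a median of 0.03, and 3 of 6 lay higher than in Non-instigator arrays with a median of -0.02. Leaving out Matrigel 3 as well gave 3 of 6 and 0.01 against Matrigel.

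Igtp (Irgm3) lay at 9.19, 9.44, 9.32, 11.01 and 9.55 in Instigator arrays, at 8.79, 9.35, 9.43, 9.50 and 9.64 in Non-instigator arrays and at 9.01, 9.15, 9.35 and 9.16 in Matrigel arrays. Instigator 4 lay 1.36 above the next highest array, and Non-instigator 1 was lowest. The difference was 0.53 (95% CI -0.09 to 1.16, adjusted p = 0.537) in Instigator against Matrigel and 0.17 (95% CI -0.45 to 0.80, adjusted p = 0.986) in Non-instigator against Matrigel. Without Instigator 4 the first was 0.21, and without Non-instigator 1 the second was 0.31. Iigp1, described here because of its values, lay at 4.94, 5.31, 4.96, 6.93 and 5.17 in Instigator arrays, at 4.77, 4.84, 5.41, 5.12 and 5.27 in Non-instigator arrays and at 5.19, 5.15, 4.75 and 5.03 in Matrigel arrays. Outside Instigator 4, at 6.93, its values ran from 4.75 to 5.41 in the 3 groups. Its difference in Instigator against Matrigel was 0.43 with all arrays and 0.07 without Instigator 4. The dimmer Iigp1 probe set differed by 0.05 there with all arrays. That set was also highest on Instigator 4, but at 5.07 against 4.03 to 4.79 elsewhere.

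Gbp3, a guanylate-binding protein, lay at 8.52, 8.52, 8.80, 9.22 and 8.40 in Instigator arrays, at 8.80, 8.23, 8.27, 8.33 and 8.23 in Non-instigator arrays and at 8.44, 8.41, 8.75 and 8.52 in Matrigel arrays. High values were on Instigator 4, Instigator 3, Non-instigator 1 and Matrigel 3, so that each group held 1 or more. In Instigator against Non-instigator it differed by 0.32 (95% CI -0.01 to 0.65, adjusted p = 0.813), by 0.19 without Instigator 4 and by 0.43 without Non-instigator 1. Gbp2 averaged 6.88 ± 0.50 across Instigator arrays (SD, n = 5), 6.87 ± 0.33 across Non-instigator arrays (SD, n = 5) and 6.76 ± 0.30 across Matrigel arrays (SD, n = 4), and at its second probe set, whose x_at suffix marks probes that match further transcripts, Instigator 4 lay at 8.32 against 5.83 to 6.78 elsewhere. Ifi47 lay at 9.53, 9.79, 9.78, 10.68 and 9.83 in Instigator arrays, at 9.62, 9.88, 9.87, 10.15 and 10.11 in Non-instigator arrays and at 9.67, 9.87, 9.54 and 9.68 in Matrigel arrays. Apart from Instigator 4 its 2 highest values were Non-instigator 4 and 5. In Non-instigator against Matrigel it differed by 0.23 (95% CI -0.16 to 0.63, adjusted p = 0.986). Irgm1 averaged 7.73 ± 0.37 across Instigator arrays (SD, n = 5), 7.63 ± 0.23 across Non-instigator arrays (SD, n = 5) and 7.60 ± 0.13 across Matrigel arrays (SD, n = 4).

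**Figure D4:**
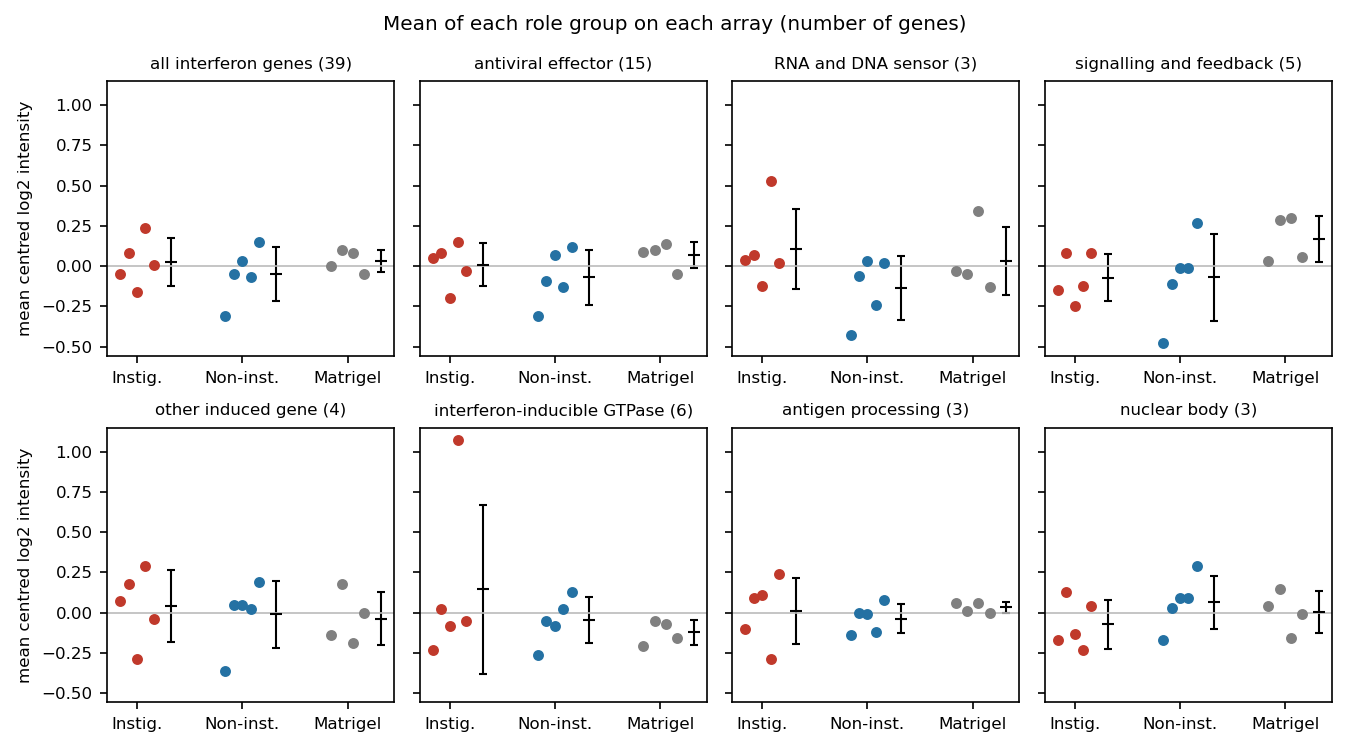
Mean centred log2 intensity of all 39 genes and of each role group on each array (points), with the mean and SD of each group (bars), in the order Instigator, Non-instigator, Matrigel. The GTPase panel shows Instigator 4 at 1.07 with every other array between -0.26 and 0.13.

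Among antigen processing genes, the immunoproteasome subunits Psmb8 and Psmb9 cut peptides for class I molecules. Psmb8 averaged 10.69 ± 0.15 across Instigator arrays (SD, n = 5), 10.70 ± 0.10 across Non-instigator arrays (SD, n = 5) and 10.73 ± 0.04 across Matrigel arrays (SD, n = 4). Psmb9 averaged 9.93 ± 0.36 across Instigator arrays (SD, n = 5), 10.02 ± 0.15 across Non-instigator arrays (SD, n = 5) and 10.12 ± 0.13 across Matrigel arrays (SD, n = 4), with Instigator 4 lowest at 9.37. Tap1, which carries the peptides into the endoplasmic reticulum, lay at 8.44, 8.66, 8.56, 8.47 and 8.85 in Instigator arrays, at 8.37, 8.38, 8.36, 8.26 and 8.45 in Non-instigator arrays and at 8.64, 8.41, 8.57 and 8.13 in Matrigel arrays. Its highest value was on Instigator 5, and 4 Instigator arrays lay above the Non-instigator range of 8.26 to 8.45. The difference in Instigator against Non-instigator was 0.23 (95% CI 0.01 to 0.46, adjusted p = 0.813). It was 0.26 without Instigator 4, 0.17 without Instigator 5 and 0.09 with Instigator 5 counted as Non-instigator. The other Tap1 probe sets gave 0.06 to 0.08.

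Pml builds the nuclear bodies that also hold Sp100 and Daxx. Sp100 lay at 9.43, 9.82, 9.63, 8.93 and 9.95 in Instigator arrays, at 9.49, 9.83, 10.16, 10.18 and 10.29 in Non-instigator arrays and at 9.81, 10.20, 9.86 and 9.91 in Matrigel arrays. Instigator 4 was lowest by 0.50 and 3 Non-instigator arrays lay above 10.15, but Instigator 5 reached 9.95. It differed by -0.44 (95% CI -0.84 to -0.04, adjusted p = 0.813) in Instigator against Non-instigator. The difference was -0.28 without Instigator 4 and -0.56 without Non-instigator 1. Daxx, a histone chaperone, lay at 7.95, 8.05, 7.73, 7.91 and 7.69 in Instigator arrays, at 7.89, 7.95, 7.73, 7.80 and 7.98 in Non-instigator arrays and at 7.83, 7.68, 7.52 and 7.75 in Matrigel arrays. It lay 0.17 above Matrigel in both tumour groups, with adjusted p of 0.541 for Instigator and 0.986 for Non-instigator arrays, and its tumour groups differed by 0.00. Without Matrigel 3 the Instigator difference was 0.11. Pml averaged 8.15 ± 0.18 across Instigator arrays (SD, n = 5), 8.12 ± 0.18 across Non-instigator arrays (SD, n = 5) and 8.16 ± 0.20 across Matrigel arrays (SD, n = 4).

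Single arrays stood out. On Non-instigator 1, 35 of the 39 genes lay below their own mean. Their median centred value there was -0.27, beside -0.03 over all genes. On that array 9 had their lowest value of the 14 arrays, against 6.26% of all genes. The 9 were Oas1a, Oas3, Mx1, Rsad2, Zbp1, Irf7, Irf9, Usp18 and Igtp. Non-instigator 5, of the same group, had 34 of 39 above their mean (median 0.15, beside -0.02 over all genes). It held the highest value for 5, against 4.33% of all genes. Instigator 4 held the lowest value for 9 as well, but also for 21.1% of all genes. Matrigel 3 held the highest value for 8, but also for 34.0% of all genes. With Instigator 4 left out, Non-instigator 1 held the lowest value for 12 of the 39 genes, against 8.06% of all genes.

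Markers of other cell types moved on the same arrays. Plasmacytoid dendritic cell markers (13 of 15 measured) had a mean centred level of -0.48 to 0.20 in Instigator, -0.39 to 0.31 in Non-instigator and 0.13 to 0.39 in Matrigel arrays. Their end points among the Non-instigator arrays were the same as for the interferon genes, since Non-instigator 1 was lowest and Non-instigator 5 highest. Markers of conventional dendritic (-0.41 and 0.41), plasma (-0.59 and 0.51), NK (-0.08 and 0.56) and erythroid cells (-0.16 and 0.28) had the same ends. T cell markers were also lowest on Non-instigator 1 (-0.44). Neutrophil (0.16 and -0.27) and progenitor markers (0.10 and -0.18) had the ends reversed, so the ends were not particular to plasmacytoid dendritic cells. Of the 13 plasmacytoid markers, 10 lay lower in Instigator and 12 in Non-instigator than in Matrigel arrays (54.1% and 61.7% of all genes), with medians of -0.59 and -0.31. Other lists also lay lower in Instigator than in Matrigel arrays. These were 8 of 11 conventional dendritic, 13 of 15 B, 8 of 8 plasma, 14 of 14 T and 10 of 10 NK cell markers. In Non-instigator arrays 7, 11, 4, 2 and 0 of them lay lower than in Matrigel arrays. Of neutrophil markers 1 of 13, and of basophil, mast cell and eosinophil markers 2 of 11, lay lower in Instigator arrays. The plasmacytoid list shares Bst2, Tlr7 and Tlr9 with the interferon pathway lists described below, so it is not independent of them. No probe set is named for Siglech, a defining marker of plasmacytoid dendritic cells.

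B cell markers (15 of 16 measured) ran from -0.99 to 0.14 in Instigator, from -0.63 to 0.59 in Non-instigator and from -0.13 to 0.42 in Matrigel arrays, with the same 2 Non-instigator arrays at the ends. On Instigator 4, where the GTPases averaged 1.07, macrophage and monocyte markers (13 of 14 measured) averaged 0.52 and basophil, mast cell and eosinophil markers (11 of 12) 0.49, against -0.19 to 0.22 and -0.64 to 0.39 on the other arrays. Plasmacytoid (-0.32) and conventional dendritic cell (-0.29), NK cell (-0.31) and plasma cell markers (-0.31) lay low there, and the remaining lists between -0.13 and 0.03. Over all genes, Instigator 4 held the highest of the 14 values for 21.1% and the lowest for 21.1%. In sorted bulk cells, fewer cells of a type and less RNA per cell cannot be told apart. The part of these markers, and of the control probe sets of Instigator 4, in the interferon values was not tested.

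**Figure D5:**
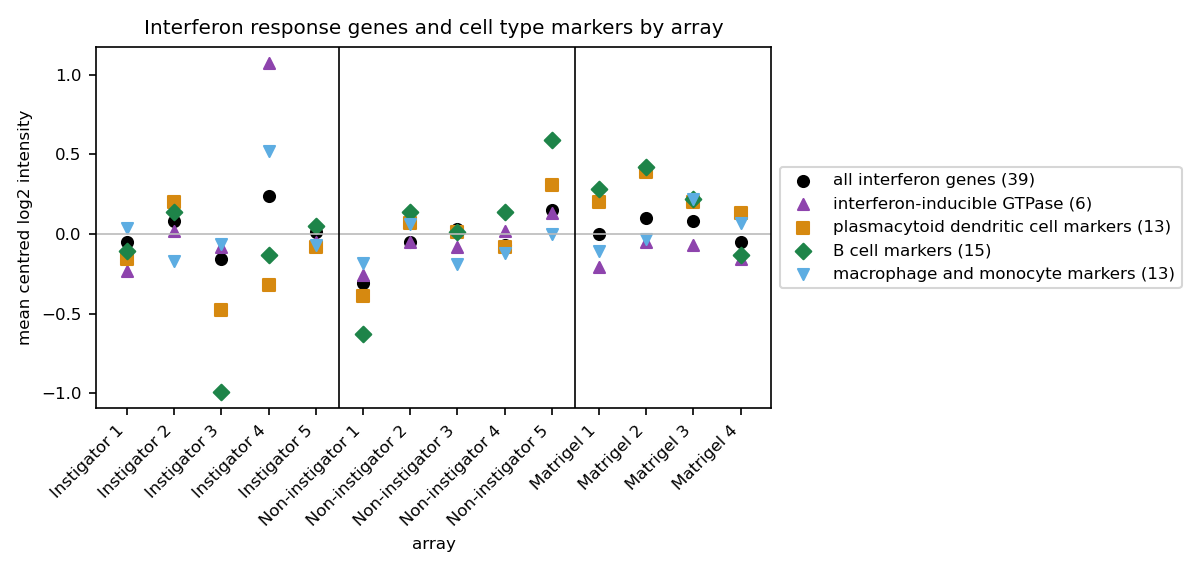
Mean centred log2 intensity per array of the 39 interferon genes, the 6 GTPases and 3 lists of cell type markers, with groups in the order Instigator, Non-instigator, Matrigel (vertical lines part them). On Non-instigator 1 the interferon genes (-0.31), plasmacytoid dendritic cell markers (-0.39) and B cell markers (-0.63) all lie low.

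Nor did any further pathway gene pass the test. Of 112 further pathway genes, 84 were measured and 0 were called in any comparison. At an unadjusted p under 0.05, 6 were higher and 9 lower in Instigator against Matrigel, beside 3.63% and 5.16% of all genes. In Non-instigator against Matrigel 1 was higher and 2 lower, beside 0.791% and 1.17%. In Instigator against Non-instigator 2 were higher and 3 lower, beside 2.41% and 2.92%. Groups without overlap were found for 2 of the 84, both lower in Instigator than in Matrigel arrays, beside 1.21% of all genes. In Non-instigator against Matrigel 1 was lower without overlap, beside 0.403%, and in Instigator against Non-instigator 0 were. The 10 interferon ligand genes measured, among them Ifng for interferon gamma, differed by -0.18 to 0.17 in all comparisons, and none was under 0.05. Several were dim, so small changes could be missed. Ifnb1 stayed between 4.64 and 4.93 and Ifna2 between 3.90 and 4.26, against array medians of 6.90 to 7.18. The sets of Ifna1, Ifna5 and Ifnab have the x_at suffix. By array, Ifng was highest on Instigator 4, at 7.88 against 6.57 to 7.55 elsewhere, as were 21.1% of all genes. Its part in the GTPase values of that array was not tested. Among receptors and kinases (7 measured), the type I receptor chain Ifnar1, added after its values were seen, lay at 8.71, 8.73, 8.73, 8.35 and 8.85 in Instigator arrays, at 8.78, 9.05, 8.78, 8.83 and 9.18 in Non-instigator arrays and at 8.89, 8.93, 9.22 and 8.89 in Matrigel arrays. All Instigator arrays lay below all Matrigel arrays, the nearest being 8.85 in Instigator and 8.89 in Matrigel. The difference was -0.31 in Instigator against Matrigel, -0.15 without Instigator 4 and Matrigel 3, and -0.25 in Instigator against Non-instigator. The smallest adjusted p of the 7 receptor and kinase genes was 0.442 in Instigator against Matrigel and 0.813 in Instigator against Non-instigator. The interferon gamma receptor chain Ifngr1 differed by 0.47 (95% CI 0.02 to 0.91, adjusted p = 0.986) in Non-instigator against Matrigel, where Matrigel 3 lay at 7.63 and the other Matrigel arrays at 8.77 to 8.93. Without Matrigel 3 it differed by 0.16.

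Of the genes that induce interferon (11 measured), the endosomal RNA sensor Tlr7 lay at 7.15, 7.16, 6.48, 7.21 and 7.43 in Instigator arrays, at 6.86, 7.23, 7.48, 7.41 and 7.60 in Non-instigator arrays and at 7.55, 7.75, 8.01 and 7.41 in Matrigel arrays. Instigator 3 and Non-instigator 1 were lowest. It differed by -0.59 (SE 0.19, adjusted p = 0.439) in Instigator against Matrigel. It is also on the plasmacytoid marker list. Mavs, the mitochondrial adaptor of the RNA sensors, differed by 0.26 (95% CI 0.05 to 0.47, adjusted p = 0.442) in Instigator and by 0.20 (95% CI 0.00 to 0.41, adjusted p = 0.986) in Non-instigator against Matrigel, and by 0.19 and 0.13 without Matrigel 3. Ptpn2, a phosphatase that switches off Jak kinases, lay at 9.89, 9.93, 9.37, 9.84 and 9.84 in Instigator arrays, at 9.89, 10.09, 9.98, 10.07 and 10.18 in Non-instigator arrays and at 9.99, 10.33, 10.31 and 9.98 in Matrigel arrays. All Instigator arrays lay below all Matrigel arrays, the nearest being 9.93 in Instigator and 9.98 in Matrigel. The difference was -0.38 (95% CI -0.64 to -0.12, adjusted p = 0.439) in Instigator against Matrigel and -0.27 (95% CI -0.51 to -0.03, adjusted p = 0.813) in Instigator against Non-instigator. Without Instigator 3 they were -0.28 and -0.17.

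Of 47 further induced genes, Ifi30, a lysosomal thiol reductase, lay at 11.28, 11.38, 11.09, 11.51 and 11.08 in Instigator arrays, at 10.94, 11.23, 11.23, 11.00 and 11.35 in Non-instigator arrays and at 11.44, 11.51, 11.42 and 11.53 in Matrigel arrays. All Non-instigator arrays lay below all Matrigel arrays, while Instigator arrays reached 11.51, and the difference was -0.33 (95% CI -0.56 to -0.09, adjusted p = 0.986). The restriction factor Ifitm3 differed by 0.30 (95% CI 0.03 to 0.58, adjusted p = 0.813) and the immune checkpoint ligand Cd274 by -0.49 (95% CI -0.89 to -0.09, adjusted p = 0.813) in Instigator against Non-instigator. Nampt, an enzyme of NAD synthesis, differed by 0.38 (95% CI 0.02 to 0.73, adjusted p = 0.813) there. Without Instigator 4 these 3 differences were 0.22, -0.36 and 0.24. The ATPase-like Tor3a differed by 0.49 (95% CI 0.08 to 0.91, adjusted p = 0.442) in Instigator against Matrigel, by 0.26 without Matrigel 3, on which it lay at 6.85, and by 0.16 without Instigator 4 and Matrigel 3. The helicase Ddx60 differed by -0.26 (95% CI -0.50 to -0.01, adjusted p = 0.986) in Non-instigator against Matrigel, and by -0.16 without Matrigel 3.

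Genes with the ISRE letters in their RefSeq window were set beside those without. The 12 measured genes with a match had median differences of -0.21 in Instigator against Matrigel, -0.14 in Non-instigator against Matrigel and 0.04 in Instigator against Non-instigator. The 17 measured genes with a window and no match had medians of -0.01, -0.03 and 0.00. Without Matrigel 3 the medians in Instigator against Matrigel were -0.07 with a match and -0.01 without one. Without Instigator 4 they were -0.13 and 0.04 there, and -0.03 and 0.01 in Instigator against Non-instigator. The difference between genes with and without a match was not tested. Of the 12, 7 lay lower in Instigator and 8 in Non-instigator than in Matrigel arrays. Probe sets of 1 gene did not always go together, since in the 12 genes with more than 1 set all sets had the same sign in 8, 7 and 6 genes in the 3 comparisons in the order given.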

How the data were processed

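Expression was measured in 14 samples on Affymetrix arrays, 1 biotin-labelled sample each. For 22690 probe sets the authors deposited intensity on a linear scale. Per the submitters' processing notes they used RMA, affy and R 2.11.0, and the sources used here do not give the options. RMA corrects background, normalizes between arrays and summarises probes, which compresses small differences of dim probe sets. No further normalization was applied before log2 was taken of the deposited intensity. The number of arrays limits the precision.

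After removal of 64 control probe sets, 22626 stayed. In the platform annotation that gave gene names, 20380 of these have 1 symbol, 691 several and 1555 none. All 39 measured symbols were found in the reference table of GRCm38.p6. Promoter sequences are from RefSeq.

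Groups were taken from sample titles. A single limma model (version 3.58.1, R 4.3.3) with group as factor covered all 14 arrays, and the Benjamini-Hochberg adjustment ran over all 22626 probe sets. The code was tested on simulated data. In each comparison the text gives the 4 higher and 4 lower genes of lowest p, and 2 of each from the pathway lists. Genes outside that rule were chosen after their values were seen. The genes, lists and tests were chosen with earlier results of these data known. Replicate numbers were not treated as pairs in the main model. Deviations of same-numbered arrays correlated between -0.201 and 0.269, but arrays of different numbers were not set beside them, so pairing cannot be judged from this. Plots were drawn with matplotlib 3.10.9.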

Additional observations from a re-analysis of the deposited data

Results flagged for a closer look

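In each group of 4 or 5 arrays, the gap between the most extreme array and its nearest neighbour was set against the range of the group, for the 39 genes and their mean. Of 120 such tests, 13 exceeded Dixon's 95% critical value, where chance gives about 1 in 20 for independent tests. Genes on 1 array can vary together, and no share over all genes stands beside this count. Instigator 4 gave 7 of the 13. Over all genes it was the lowest array of its group for 34.7% and the highest for 31.9%. Its values were 11.01 (others 9.19 to 9.55) for Igtp, 6.93 (others 4.94 to 5.31) for Iigp1, 10.68 (others 9.53 to 9.83) for Ifi47 and 7.74 (others 6.51 to 6.80) for Gbp2, each above the other Instigator arrays. Ifih1 at 8.62 (others 6.85 to 7.22) and Zbp1 at 8.94 (others 8.27 to 8.37) were above them too (the dimmer Zbp1 probe set was lowest there, at 6.69), while Adar at 5.97 (others 6.64 to 6.71) was below. The dimmer Iigp1 probe set lay at 5.07 on Instigator 4 (others 4.25 to 4.53). Non-instigator 1 stood apart for Rsad2 at 10.10 (others 11.13 to 11.37), Rtp4 at 6.38 (others 6.96 to 7.19) and Gbp3 at 8.80 (others 8.23 to 8.33). Non-instigator 2 did so for Oasl1 at 4.81 (others 5.02 to 5.10). Matrigel 3 was high for Oasl1 at 6.22 (others 4.99 to 5.11) and for Oas1a at 8.89 (others 8.10 to 8.16). The mean of the 39 genes did not exceed the critical value in any group.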

How the results depend on the processing

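None of the 39 genes was called in any comparison under any alternative run: each array left out, Instigator 4 and Matrigel 3 both left out, Instigator 5 moved to Non-instigator, array weights, a replicate block, arrays centred or quantile normalized, robust estimation with an intensity trend, fits of 2 groups only, dim probe sets dropped, and probe sets averaged by gene. Over all probe sets, Instigator against Matrigel gave 1 called in place of 0 without Instigator 4, so that leaving out each array gave 0 to 1, and 1 without Instigator 4 and Matrigel 3. Neither call was of an interferon response gene of the list. With the replicate block 0 probe sets were called, and the median differences of the 39 genes were -0.06 in Instigator against Matrigel, -0.08 in Non-instigator against Matrigel and 0.06 in Instigator against Non-instigator. Leaving out each array moved the 3 medians over -0.05 to 0.00, -0.11 to -0.04 and 0.00 to 0.11, and centring gave 0.04, -0.02 and 0.09. Over all probe sets centring gave medians of 0.05, 0.01 and 0.04. Among the named genes, only Rtp4 changed sign, to -0.02 in Non-instigator against Matrigel without Matrigel 3 (-0.02 to 0.28 over single arrays left out) and to -0.02 without Instigator 4 and Matrigel 3. With array weights, 3 of 6 GTPases lay higher in Instigator than in Matrigel arrays (median 0.02).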
